A study of Mus musculus with 16 samples.

Results

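Tubulin isotypes are the products of separate genes for the same building block of microtubules, and 10 of them were followed here across mouse hearts that did or did not overexpress the receptor tyrosine kinase ERBB2. The members were chosen by symbol, as 5 alpha-tubulin genes (Tuba1a, Tuba1b, Tuba1c, Tuba4a and Tuba8) and 5 beta-tubulin genes (Tubb2a, Tubb2b, Tubb4b, Tubb5 and Tubb6), out of 24421 genes in the deposited table. All 10 passed the filter on low values that left 14298 genes for testing. Other tubulin genes of the table are described as a list of their own further on.

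Alpha- and beta-tubulin pair into a heterodimer, and heterodimers add end to end and side by side to form the hollow microtubule. Isotypes differ mainly in the acidic tail at the C terminus, which faces outward and carries most of the reversible modifications read by motors and microtubule-associated proteins. In heart muscle cells a dense microtubule network runs between the myofibrils and around the nucleus, and microtubules whose alpha-tubulin has lost its terminal tyrosine are known to add stiffness to the contracting cell. Dividing cells rebuild the same proteins into the mitotic spindle.

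Poly(A) RNA was sequenced from whole hearts of adult mice about 3 months old, in 4 groups of 4 animals. Wild type sham hearts (WT sham), ERBB2-overexpressing sham hearts (OE sham), wild type infarcted hearts (WT MI) and ERBB2-overexpressing infarcted hearts (OE MI) form a 2-factor design. Infarction was made by permanently tying off the left anterior descending coronary artery, and RNA was taken 2 weeks later. The promoter, the inducing agent and the cell type of the overexpression, and the sex of the mice, are not given in the sources used here.

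Between 11939093 and 14886191 reads were counted per WT library and between 14998464 and 17468914 per OE library. Counted depth was therefore higher in every OE than in every WT library, and its part in the genotype results was not tested. Erbb2 read between 204 and 307 normalized reads in the 8 WT libraries and between 792 and 2529.9 in the 8 OE libraries, so every library matched its genotype label. On the second principal component of all tested genes, 2 infarcted libraries (WT MI replicate 1 and OE MI replicate 4) lay on the side of the sham hearts. Lung epithelial transcripts were present in some infarcted libraries: the summed level of 8 lung markers ran from 15.3 to 42.2 normalized reads in sham hearts, from 22.9 to 10645 in WT MI and from 34.4 to 7252 in OE MI. Sftpd was at 0 in all sham libraries, and Slc34a2 in all OE sham libraries. The summed level of 9 thymocyte and T cell markers ran from 18.2 to 72.8 in sham hearts, from 30.1 to 60.0 in WT MI and from 55.3 to 1588 in OE MI.

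The end of the coding sequence is shown for 7 members, because the last codon differs between Tuba1c, which rose in OE sham hearts, Tuba4a, which fell, and Tuba8, which did not pass the test. Each line holds the last 60 coding bases of the RefSeq-matched GENCODE M21 transcript (GRCm38), with the final amino acid codon in capitals and the stop codon after it.
Tuba1c: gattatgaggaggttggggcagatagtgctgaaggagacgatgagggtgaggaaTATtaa
Tuba4a: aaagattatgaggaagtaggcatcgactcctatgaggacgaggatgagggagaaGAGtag
Tuba8: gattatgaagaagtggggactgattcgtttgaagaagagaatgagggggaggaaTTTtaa
Tubb2a: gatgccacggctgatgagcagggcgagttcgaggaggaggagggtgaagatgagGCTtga
Tubb2b: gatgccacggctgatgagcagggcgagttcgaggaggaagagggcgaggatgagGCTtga
Tubb4b: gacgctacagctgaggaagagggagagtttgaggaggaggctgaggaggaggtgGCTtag
Tubb5: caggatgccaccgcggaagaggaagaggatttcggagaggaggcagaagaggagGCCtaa
TAT encodes tyrosine, GAG glutamate, TTT phenylalanine, and GCT and GCC alanine. Tuba1c therefore encodes the terminal tyrosine that tubulin carboxypeptidases remove and tubulin tyrosine ligase restores, while Tuba4a ends in glutamate and Tuba8 in phenylalanine.

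The members lie on 7 chromosomes, and several are close copies of each other. On GRCm38 the Tuba1 genes sit together on chromosome 15, with Tuba1b at chr15:98931429-98934390 and Tuba1a at chr15:98949847-98953501 on the minus strand and Tuba1c at chr15:99029891-99038105 on the plus strand. Tubb2a (chr13:34074278-34078008) and Tubb2b (chr13:34127008-34130354) are neighbours on the minus strand of chromosome 13. Tuba4a lies at chr1:75214972-75221261, Tubb4b at chr2:25222158-25224702 and Tubb5 at chr17:35833920-35838301, all on the minus strand. Tuba8 is on the plus strand at chr6:121210734-121226098, and Tubb6 is on the plus strand of chromosome 18. Tuba8 has 5 exons in the transcript used and the other members have 4.

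The coding sequences of Tuba1a and Tuba1b were identical at 98.3% of aligned bases, those of Tuba1b and Tuba1c at 98.37%, and those of Tubb2a and Tubb2b at 96.49%. Tuba4a matched the Tuba1 genes at 85.3 to 85.88%, and Tubb5 matched the other beta members at 81.1 to 84.79%. Reads were 60 bases long, and the part of a transcript made of 60-base stretches found in no other annotated gene was 18.8% for Tuba1b, 26.3% for Tuba1a, 40.9% for Tuba1c, 53.3% for Tubb2a and 63.8% for Tubb2b. It was 100% for Tubb5 and Tubb6. How reads with several alignments were handled is not given in the sources used here, so the split of reads among the Tuba1 genes, and between Tubb2a and Tubb2b, is uncertain. Tuba1 stretches were also shared with other annotated genes. Of Tuba1b stretches 52.0% were shared with AC157548.1 and 44.8% with Gm14150, so the Tuba1 sum is uncertain too. For Tubb4b the part was 50.7%, with stretches shared mostly with its pseudogenes.

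Tuba4a overlaps Stk16, which is read from the opposite strand, and 52.1% of Tuba4a stretches were unique. Whether counting used strand is not given in the sources used here. Stk16 itself had a log2 difference of 0.11 ± 0.09 (SE) between OE and WT sham hearts, and did not pass (limma, adjusted p = 0.293). For Tuba8 the unique part was 85.9%, the rest lying under the opposite-strand gene Gm15856.

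In wild type sham hearts Tuba4a was the most abundant alpha isotype per length, at 4473 ± 758 normalized reads per kilobase of transcript (SD, n = 4). Tuba8 followed at 1776 ± 512 reads per kilobase, then Tuba1b at 408 ± 22.6, Tuba1a at 362 ± 20.8 and Tuba1c at 84.9 ± 12.4. With all reads of a gene divided by its unique stretches only, Tuba4a remained first and Tuba1c last. Tuba1b (2242 ± 124 reads per unique kilobase) then stood beside Tuba8 (2123 ± 612). This measure holds only if reads shared between genes were not counted, and otherwise overstates genes with few unique stretches. Among the beta isotypes Tubb4b led at 2717 ± 652 reads per kilobase, ahead of Tubb5 at 732 ± 53.5, Tubb6 at 303 ± 69.3, Tubb2a at 195 ± 45.8 and Tubb2b at 16.2 ± 4.76.

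ERBB2 overexpression was first compared with wild type in uninjured hearts. In sham hearts 7 of the 10 members rose (Tuba1a, Tuba1b, Tuba1c, Tubb2a, Tubb2b, Tubb5 and Tubb6), 1 fell (Tuba4a), and Tuba8 and Tubb4b did not pass an adjusted p of 0.05. The rises ran from 1.81-fold for Tuba1a to 3.21-fold for Tubb2a, and Tuba4a was 1.73-fold lower. Adjusted p-values came from limma on log2(normalized reads + 1) with Benjamini-Hochberg adjustment over all tested genes, and folds and log2 differences are on that scale, which understates changes of low genes. Calls were common in this comparison: 49.3% of all tested genes passed, 24.9% as higher and 24.5% as lower in OE sham. The median log2 difference was 1.05 over the members and 0.01 over all tested genes. For 8 members the 4 OE and the 4 WT sham values did not overlap, which held for 48.7% of all tested genes.

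**Figure D1:**
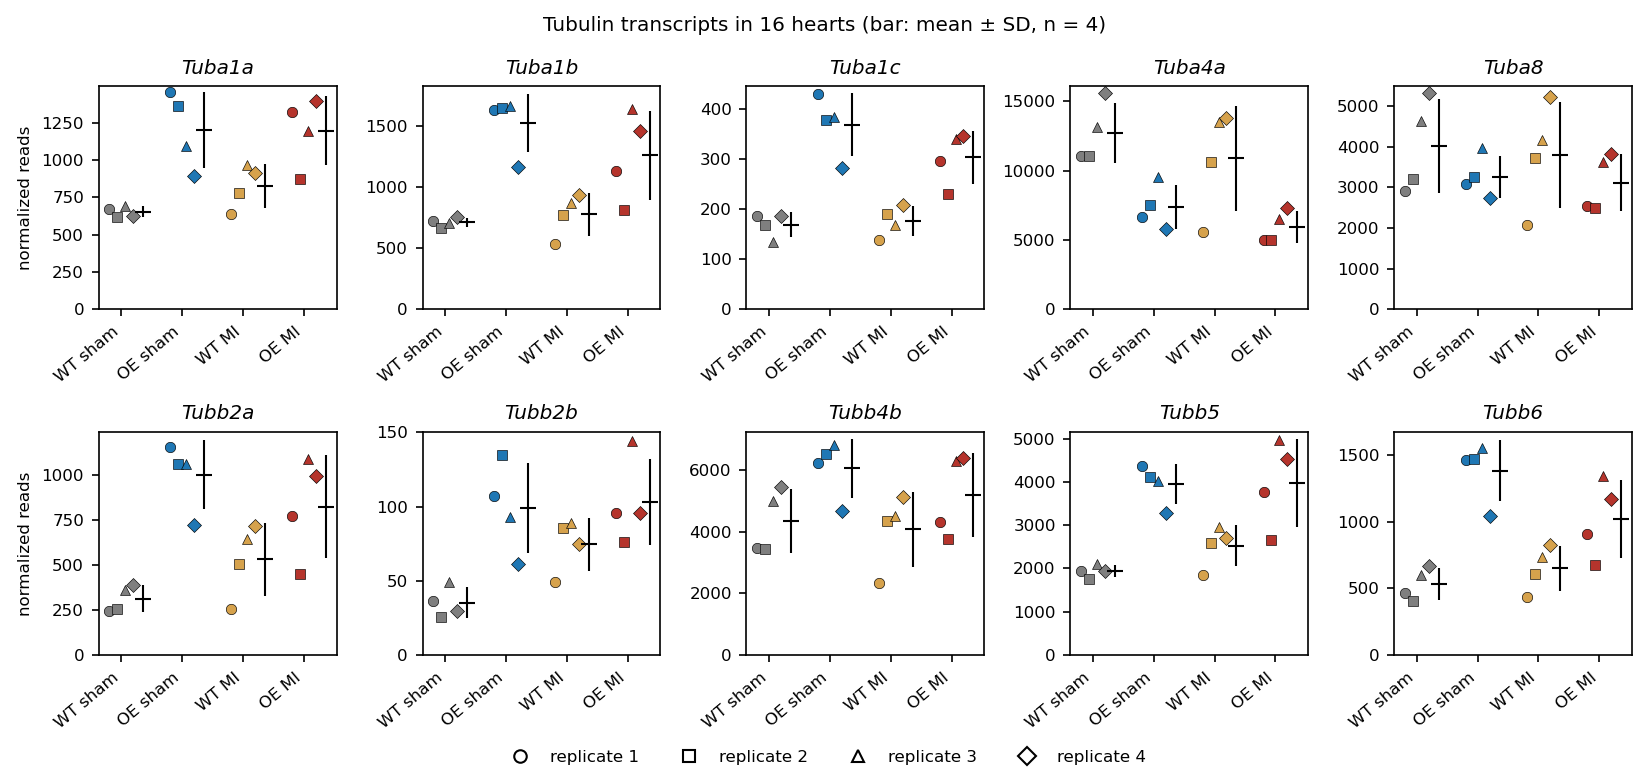
Normalized reads (y axis, linear, from 0) of each tubulin isotype in every heart, by group; symbols mark replicates 1 to 4 and bars the mean ± SD (n = 4). Tuba1a to Tuba1c, Tubb2a, Tubb2b, Tubb5 and Tubb6 sit higher in all OE sham than in all WT sham hearts, Tuba4a sits lower, and WT MI replicate 1 is the lowest WT MI heart in all 10 panels.

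Among the Tuba1 genes, Tuba1b, a widely expressed alpha-tubulin, had the highest level per length in sham hearts. Tuba1b read 724, 661, 702 and 755 in WT sham replicates 1 to 4, and 1628, 1650.3, 1663 and 1168 in OE sham. All OE sham values lay above all WT sham values, with OE sham replicate 4 well below the other OE hearts. The log2 difference was 1.09 ± 0.20 (SE; adjusted p = 0.000327).

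Tuba1a, the main alpha-tubulin of the developing brain, read 674, 620.4, 694 and 621 in the WT sham hearts. The OE sham hearts read 1454, 1359.8, 1093 and 895, again all above the WT hearts. The log2 difference was 0.85 ± 0.17 (SE; adjusted p = 0.000551).

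Tuba1c, the low-abundance relative in the same gene cluster, read 186, 169, 133 and 185 in WT sham and 429.9, 378, 382 and 281 in OE sham. Its log2 difference was 1.12 ± 0.17 (SE; adjusted p = 4.94e-05). The Tuba1 genes summed read 1531 ± 58.6 in WT sham and 3096 ± 525 in OE sham (SD, n = 4), with no overlap of the libraries. This sum does not depend on how counted reads were split among the Tuba1 genes. It does depend on whether reads shared among them were counted, and on reads shared with other annotated genes.

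Tuba4a, the isotype that ends in glutamate, moved the other way. It read 11039.5, 11055, 13152 and 15568 in WT sham and 6671, 7541, 9509 and 5809 in OE sham. Every OE sham heart lay below every WT sham heart, and the log2 difference was -0.79 ± 0.24 (SE; adjusted p = 0.0135). Tuba8, an isotype of heart, skeletal muscle, brain and testis, read 2908, 3198, 4633 and 5339 in WT sham and 3088, 3263, 3973 and 2728 in OE sham. These groups overlapped widely, and the log2 difference of -0.27 ± 0.26 (SE) did not pass (adjusted p = 0.402). The summed level of 7 skeletal muscle markers was 3267 normalized reads in WT sham replicate 1, the WT sham heart lowest in Tuba8, and 33.2 to 147 in the other sham hearts. It was 1869 in WT MI replicate 1, the WT MI heart lowest in Tuba8, 1651 in OE MI replicate 1, and 40.2 to 769.7 in the other infarcted hearts. The part of skeletal muscle RNA in the tubulin levels was not tested.

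Library descriptions carry RA numbers of unstated meaning. WT sham replicates 3 and 4, OE sham replicate 4 and WT MI replicate 4 have numbers above 12. The WT sham pair held the highest Tuba4a, Tuba8, Tubb2a, Tubb4b, Tubb5 and Tubb6 values of their group. OE sham replicate 4 was the lowest OE sham heart for all 10 members. Among libraries numbered RA 1 to 12, Tuba4a differed by -0.50 on the log2 scale between OE and WT sham and did not pass (adjusted p = 0.216), Tuba8 differed by 0.17 (adjusted p = 0.659), and Tubb4b rose by 0.91 (adjusted p = 0.0224). The members that passed as higher with all libraries did so here with larger log2 differences, up to 2.12 for Tubb2a (adjusted p = 0.00114). The part of the RA number in these results was not tested.

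Among the beta isotypes the largest rise was that of Tubb2a, a beta-tubulin abundant in neurons. It read 243, 258, 362 and 390.3 in WT sham and 1160.0, 1065, 1062 and 725 in OE sham. The lowest OE heart was replicate 4, still above the highest WT heart. The log2 difference was 1.68 ± 0.31 (SE; adjusted p = 0.000343).

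Tubb2b, its close copy, was the least abundant member, with 36.2, 25.5, 49.4 and 29.9 in WT sham and 107, 135, 93.2 and 61.4 in OE sham. The fewest reads behind one of these values was 20. The groups did not overlap, and the log2 difference was 1.45 ± 0.27 (SE; adjusted p = 0.000364).

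Tubb6, a beta-tubulin of non-neuronal tissues, read 466, 401, 596 and 669 in WT sham and 1463, 1468, 1554 and 1044 in OE sham. Its log2 difference was 1.38 ± 0.23 (SE; adjusted p = 0.000141), with no overlap. Tubb5, the broadly expressed class I beta-tubulin, read 1933, 1765, 2112 and 1946 in WT sham and 4372, 4117, 4013 and 3288 in OE sham. The WT hearts lay close together, all OE hearts lay above them, and the log2 difference was 1.02 ± 0.17 (SE; adjusted p = 0.000151). Both genes are free of the shared stretches that make the Tuba1 and Tubb2 splits uncertain.

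Tubb4b, the most abundant beta isotype per length and a component of cytoplasmic and ciliary microtubules, read 3463, 3444, 4995 and 5462 in WT sham. OE sham hearts read 6216, 6507, 6816 and 4674, so OE replicate 4 fell inside the WT range. The log2 difference of 0.50 ± 0.24 (SE) did not pass (adjusted p = 0.103). It did pass when WT MI replicate 1 was left out of the shared spread (adjusted p = 0.0432). With only the 2 sham groups in the fit it passed too (adjusted p = 0.0336). Under 29 alternative settings it passed in 5. Scaling by library totals instead of the deposited size factors shifted the median of all tested genes to 0.17, and Tubb4b then rose by 0.65 (adjusted p = 0.0308), which is 0.49 above that median. The other members kept their calls and directions under that scaling.

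**Figure D2:**
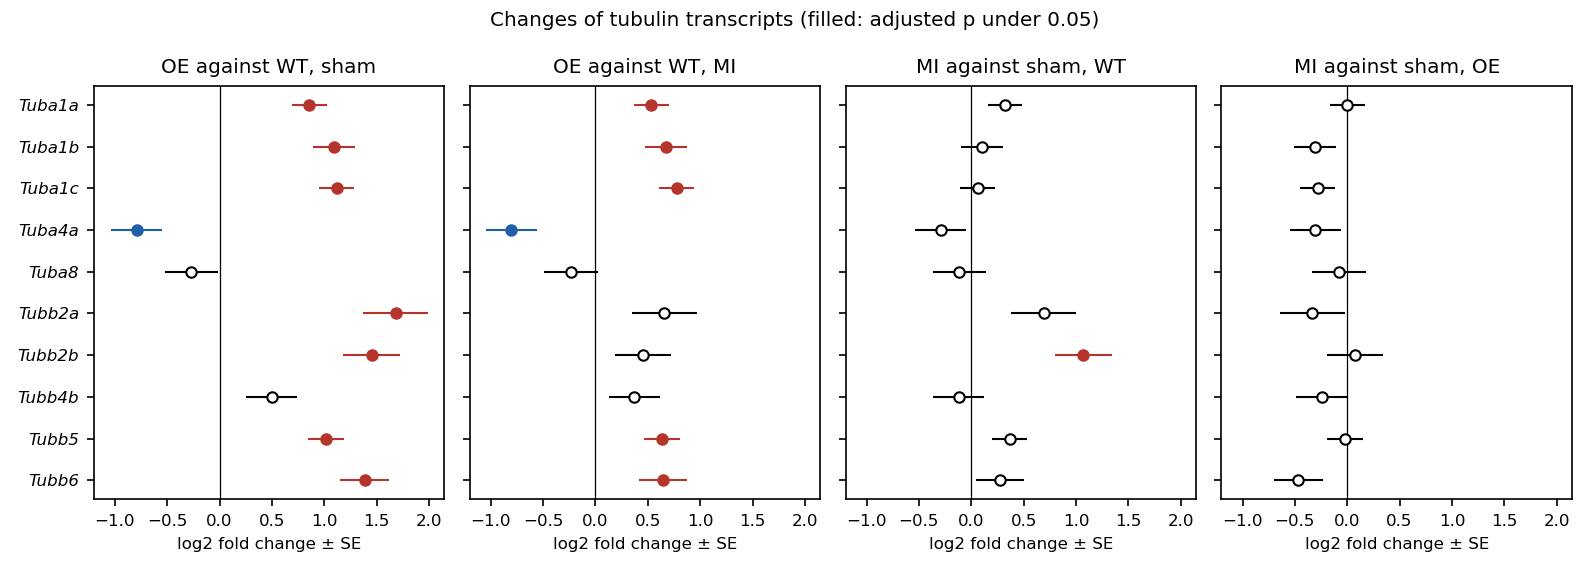
Log2 difference ± SE (x axis, from limma on log2(normalized reads + 1), 4 libraries a group) of each tubulin isotype in 4 comparisons; filled points have an adjusted p under 0.05, red higher and blue lower. In sham hearts 8 points are filled, in infarcted hearts 6, between WT MI and WT sham only Tubb2b, and between OE MI and OE sham none.

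The same genotypes were then compared 2 weeks after infarction. In infarcted hearts 5 members were higher in OE (Tuba1a, Tuba1b, Tuba1c, Tubb5 and Tubb6), Tuba4a was lower, and Tuba8, Tubb2a, Tubb2b and Tubb4b did not pass. Rises ran from 1.45-fold for Tuba1a to 1.71-fold for Tuba1c, and Tuba4a was 1.75-fold lower. Of all tested genes 31.9% passed in this comparison, 15.5% as higher and 16.3% as lower. The median log2 difference was 0.58 over the members and 0.01 over all tested genes. The values of the 2 groups did not overlap for 1 member, Tuba1c, against 26.6% of all tested genes.

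Tuba1c read 139, 189.7, 169 and 208 in WT MI and 296, 229, 339 and 346 in OE MI, and the log2 difference was 0.77 ± 0.17 (SE; adjusted p = 0.00228). Tuba1b read 536, 771, 868 and 938 in WT MI and 1131, 814, 1640.4 and 1461 in OE MI. OE MI replicate 2 lay within the WT MI range, and the log2 difference was 0.68 ± 0.20 (SE; adjusted p = 0.0166).

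Tuba1a read 639, 779, 969 and 913 in WT MI and 1322, 875, 1198 and 1394 in OE MI. OE MI replicate 2 was again the only OE heart within the WT range, and the log2 difference was 0.53 ± 0.17 (SE; adjusted p = 0.0227). Tuba4a read 5587, 10609, 13543 and 13786 in WT MI and 4959, 5019, 6508 and 7310.1 in OE MI. WT MI replicate 1 lay among the OE hearts and the other WT hearts lay above them. The log2 difference was -0.81 ± 0.24 (SE; adjusted p = 0.019).

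Tuba8 read 2073, 3715, 4158 and 5225 in WT MI and 2536, 2487, 3626 and 3823 in OE MI. These ranges overlapped, and the log2 difference was -0.23 ± 0.26 (SE; adjusted p = 0.527).

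Tubb5 read 1857, 2588, 2967 and 2707 in WT MI and 3756, 2661, 4978 and 4529 in OE MI, with a log2 difference of 0.64 ± 0.17 (SE; adjusted p = 0.00991). Tubb6 read 433, 605, 736 and 823 in WT MI and 904, 677, 1339.5 and 1168 in OE MI, with a log2 difference of 0.65 ± 0.23 (SE; adjusted p = 0.0427). For both genes OE MI replicate 2 was the only OE heart inside the WT range.

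Tubb2a read 258, 505, 648 and 717 in WT MI and 773, 448, 1089 and 994 in OE MI. Only OE MI replicate 2 fell into the WT MI range, and the log2 difference of 0.66 ± 0.31 (SE) did not pass (adjusted p = 0.123). Tubb2b read 49.4, 85.5, 89.2 and 74.8 in WT MI and 95.7, 76.4, 144 and 96.0 in OE MI (log2 difference 0.46 ± 0.27 (SE), adjusted p = 0.219). Tubb4b read 2323, 4354, 4516 and 5121 in WT MI and 4319, 3761, 6307 and 6404 in OE MI. Its groups overlapped, and the log2 difference was 0.37 ± 0.24 (SE; adjusted p = 0.267).

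Calls in the infarcted hearts depended on single libraries. Without WT MI replicate 1 there were 3 calls, and there were also 3 without OE MI replicate 1, 3 or 4. Of the 14298 tested genes 4554 passed with all libraries and 3862 without WT MI replicate 1. Without OE MI replicates 1, 3 and 4 in turn, 3982, 3522 and 3994 passed. Leaving out both infarcted libraries on the sham side of the second component left 2 calls, a rise of Tuba1c by 0.59 (adjusted p = 0.0275) and a fall of Tuba4a by 1.20 (adjusted p = 0.000525). Of all tested genes 3427 passed in that fit. Tuba1c and Tubb5 passed without each of the 16 libraries in turn. Tuba1a lost its call without WT MI replicate 1 or 2 or OE MI replicate 1, 3 or 4 (adjusted p of 0.0515 to 0.079), and Tuba4a without WT MI replicate 3 or 4 or OE MI replicate 1 (adjusted p of 0.0553 to 0.0618). Tuba1b lost it without WT MI replicate 1 or OE MI replicate 3 or 4 (adjusted p of 0.0537 to 0.0647). Tubb6 kept its call in 8 of those 16 fits, with adjusted p-values up to 0.143. Tubb2a rose by 0.92 without OE MI replicate 2 (adjusted p = 0.0233).

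Lung and thymocyte levels differed among the infarcted libraries, and the lung sum was low in the WT MI heart lowest in tubulins but high in the OE MI heart lowest in most of them. In WT MI replicate 1, the lowest heart of its group for all members, the lung sum was 22.9, against 2135 to 10645 in the other WT MI hearts. OE MI replicate 2, lowest of its group for 9 members, had a lung sum of 7252 and a thymocyte sum of 55.3, against 650.1 to 1588 in the other OE MI hearts. With the summed lung and thymocyte markers as terms in the fit, no member passed in the infarcted hearts. Of the 14298 tested genes 752 passed in that fit, against 4554 without these terms, so calls fell over all genes. The log2 difference was then 0.05 for Tuba1a (adjusted p = 0.937), 0.02 for Tuba1b (adjusted p = 0.973) and -1.06 for Tuba4a (adjusted p = 0.0989). In the sham hearts, where those markers were low, the same fit kept all 8 calls, with Tuba1b at 0.92 (adjusted p = 0.000126) and Tuba4a at -0.91 (adjusted p = 0.00546). Of all tested genes 6620 passed there, against 7051 without the terms. The part of lung or thymus tissue in the infarcted hearts' tubulin levels was not tested further.

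Infarction itself was compared with sham surgery within each genotype. These comparisons share the sham or infarcted groups of the genotype comparisons and are not independent of them. In wild type hearts 1 of 10 members passed, Tubb2b, against 7.05% of all tested genes (4.96% higher, 2.09% lower). Tubb2b was 2.10-fold higher in WT MI, with means of 74.7 ± 17.9 against 35.3 ± 10.4 normalized reads (SD, n = 4), and the log2 difference was 1.07 ± 0.27 (SE; adjusted p = 0.0293). The lowest WT MI and the highest WT sham library both read 49.4, and the call was lost without any one of 6 of the 8 libraries (adjusted p of 0.054 to 0.0962).

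Tubb2a was 0.69 ± 0.31 higher on the log2 scale in WT MI and did not pass (adjusted p = 0.171). Without WT MI replicate 1, whose 258 normalized reads lay within the WT sham range, it rose by 1.01 (adjusted p = 0.0262). Tubb5 had a log2 difference of 0.36 ± 0.17 (SE; adjusted p = 0.19) and Tuba1a one of 0.32 ± 0.17 (SE; adjusted p = 0.233). The other members lay between -0.29 for Tuba4a and 0.27 for Tubb6, with adjusted p-values of 0.47 or more. No member's WT MI and WT sham values were free of overlap, against 15.6% of all tested genes.

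In OE hearts no member passed between infarcted and sham animals in limma, none had an unadjusted p under 0.05, and edgeR and DESeq2 also called 0. The background was 0.00699% of tested genes, which is 1 gene. The log2 differences ran from -0.47 ± 0.23 (SE) for Tubb6 (adjusted p = 0.504) to 0.07 ± 0.27 for Tubb2b (adjusted p = 0.946). No member's OE groups were free of overlap, against 5.05% of all tested genes.

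The test of whether the OE effect differed between infarcted and sham hearts, the interaction term of the limma fit, passed for 0 of 10 members, and edgeR and DESeq2 also called 0. Of all tested genes 0.0839% passed, made up of 0.0769% with a lower and 0.00699% with a higher OE effect in infarcted than in sham hearts. At an unadjusted p under 0.05 there were 3 members, all beta isotypes: Tubb2a at -1.03 ± 0.44 (SE; adjusted p = 0.456), Tubb2b at -0.996 ± 0.38 (SE; adjusted p = 0.393) and Tubb6 at -0.74 ± 0.33 (SE; adjusted p = 0.474). A call in sham and none in infarcted hearts is therefore not shown to be a difference between the injury states for Tubb2a and Tubb2b.

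The order of the 4 group means was OE sham, OE MI, WT MI, WT sham for Tuba1a, Tuba1b, Tuba1c, Tubb2a and Tubb6, from high to low. Tubb2b and Tubb5 had OE MI first by a small margin, with 103 ± 29.01 against 99.1 ± 30.5 for Tubb2b and 3981 ± 1014 against 3948 ± 465 for Tubb5. Tubb4b ran OE sham, OE MI, WT sham, WT MI, and Tuba4a and Tuba8 ran WT sham, WT MI, OE sham, OE MI. The OE MI and WT MI neighbours differed for Tuba1a, Tuba1b, Tuba1c and Tubb6 as given above, and those of Tubb2a did not pass. The OE sham and WT MI neighbours of Tuba4a, Tuba8, Tubb2b and Tubb5, and the OE MI and WT sham neighbours of Tubb4b, were not tested against each other. The OE sham and OE MI neighbours did not differ beyond their spread for any member, and among the WT sham and WT MI neighbours Tubb2b alone did.

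Isotypes mix in the same polymer, and the make-up of their transcript pool was described within each library, where shares and ratios do not depend on library scaling. The 10 members together summed to 25416 ± 4599 normalized reads in uninjured WT hearts and 26227 ± 4000.1 in uninjured OE hearts (SD, n = 4). After infarction they summed to 24318 ± 7437 in WT and 22958 ± 5220.0 in OE. All groups overlapped in this sum. The alpha sum was 18254 ± 3307 in WT sham and 13741 ± 2373 in OE sham, while the beta sum was 7162 ± 1334 and 12485 ± 1798. In sham hearts the alpha sums of the genotypes overlapped (exact two-sided permutation test, p = 0.0857, adjusted p = 0.15 over 14 tests of sums and ratios). The beta sums did not overlap, with the smallest p the test can give (exact p = 0.0286, adjusted p = 0.08). In infarcted hearts the alpha sum was 16453 in WT and 11828 in OE, and the beta sum was 7865 in WT and 11129 in OE. Both overlapped there (exact permutation p = 0.171 for each, adjusted p = 0.24).

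The ratio of beta to alpha reads, in which each gene counts by its reads and not per length, was 0.395, 0.375, 0.42 and 0.378 in WT sham and 1.004, 0.937, 0.815 and 0.9 in OE sham. It was 0.548, 0.507, 0.455 and 0.448 in WT MI and 0.961, 0.809, 1.04 and 0.92 in OE MI. All 8 OE libraries lay above all 8 WT libraries. Within each surgery state the exact permutation test gave its smallest p (0.0286), and the adjusted p of 0.08 over the same 14 tests did not pass. This ratio is of transcripts and says nothing of the protein dimer.

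**Figure D3:**
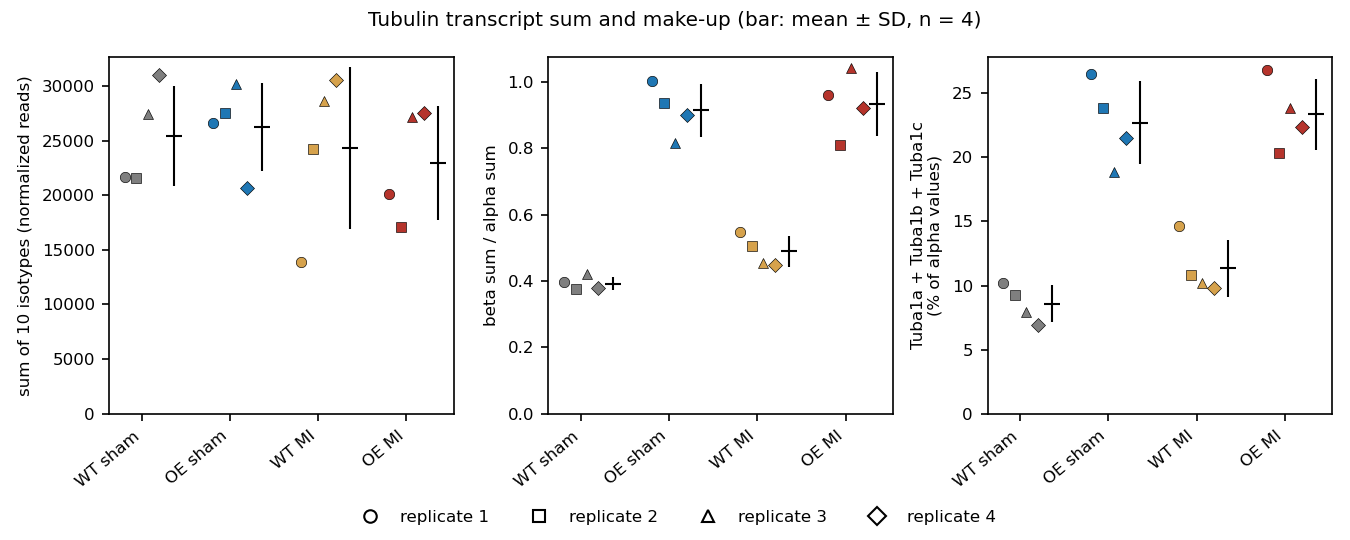
Left, summed normalized reads of the 10 tubulin isotypes; middle, beta sum divided by alpha sum; right, Tuba1a, Tuba1b and Tuba1c together as a percentage of alpha reads (y axes linear, from 0; symbols are replicates, bars mean ± SD, n = 4). The sums overlap in all groups, while the ratio and the Tuba1 share are higher in every OE than in every WT heart.

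The Tuba1 genes together made up 10.2, 9.24, 7.92 and 6.95% of alpha reads in WT sham and 26.5, 23.9, 18.9 and 21.5% in OE sham. In infarcted hearts they made up 14.6, 10.8, 10.2 and 9.77% in WT and 26.8, 20.3, 23.9 and 22.3% in OE. The lowest OE heart in either state was above the highest WT heart. Counted per transcript length the means were 12.3 ± 2.02% in WT sham and 30.1 ± 3.84% in OE sham (SD, n = 4). With all reads of a gene divided by its unique stretches they were 26.6 ± 3.37% and 53.8 ± 4.41%. The latter hold only if reads shared between genes were not counted.

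Single shares were tested with an exact two-sided permutation test over 4 against 4 libraries, in 20 tests adjusted together. The smallest p such a test can give is 0.0286, which became 0.044 after adjustment, and every share whose groups did not overlap reached it. In sham hearts that was 8 of 10 shares and in infarcted hearts 5 of 10. Tuba4a fell from 69.7 ± 1.31% of alpha reads in WT to 53.5 ± 2.85% in OE among sham hearts, and from 65.6 ± 2.65% to 50.4 ± 2.22% among infarcted hearts. Its share was lower in 4 of 4 OE hearts than in any WT heart in both states.

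Tuba1b rose from 3.97 ± 0.584% to 11.2 ± 0.994% of alpha reads in sham hearts and from 4.91 ± 0.734% to 10.5 ± 1.55% in infarcted hearts. Tuba1a and Tuba1c also rose in both states. Tuba8 held 21.7 ± 2.59% in WT sham and 23.8 ± 0.924% in OE sham (exact p = 0.257, adjusted 0.286), and 23.0 ± 1.51% and 26.3 ± 1.07% in infarcted hearts (exact p = 0.0571, adjusted 0.0816).

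On the beta side Tubb4b, whose level did not pass in sham hearts, fell from 60.2 ± 3.47% to 48.4 ± 1.59% of beta reads. Tubb2a rose from 4.35 ± 0.277% to 7.99 ± 0.542%, Tubb2b from 0.496 ± 0.124% to 0.783 ± 0.17% and Tubb6 from 7.40 ± 0.457% to 11.04 ± 0.335%. Tubb5 held 27.6 ± 3.88% in WT sham and 31.8 ± 1.78% in OE sham, a difference that did not pass (exact p = 0.143, adjusted 0.179). In infarcted hearts Tubb6 alone of the beta isotypes passed, at 8.29 ± 0.622% in WT and 9.14 ± 0.378% in OE. The groups lay close, with the highest WT MI heart at 8.79% and the lowest OE MI heart at 8.86%. A share of one isotype falls when others rise, so Tubb4b's lower share of beta reads stood beside a higher share of all tubulin reads, 16.9 ± 1.16% in WT sham and 23.1 ± 0.546% in OE sham.

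**Figure D4:**
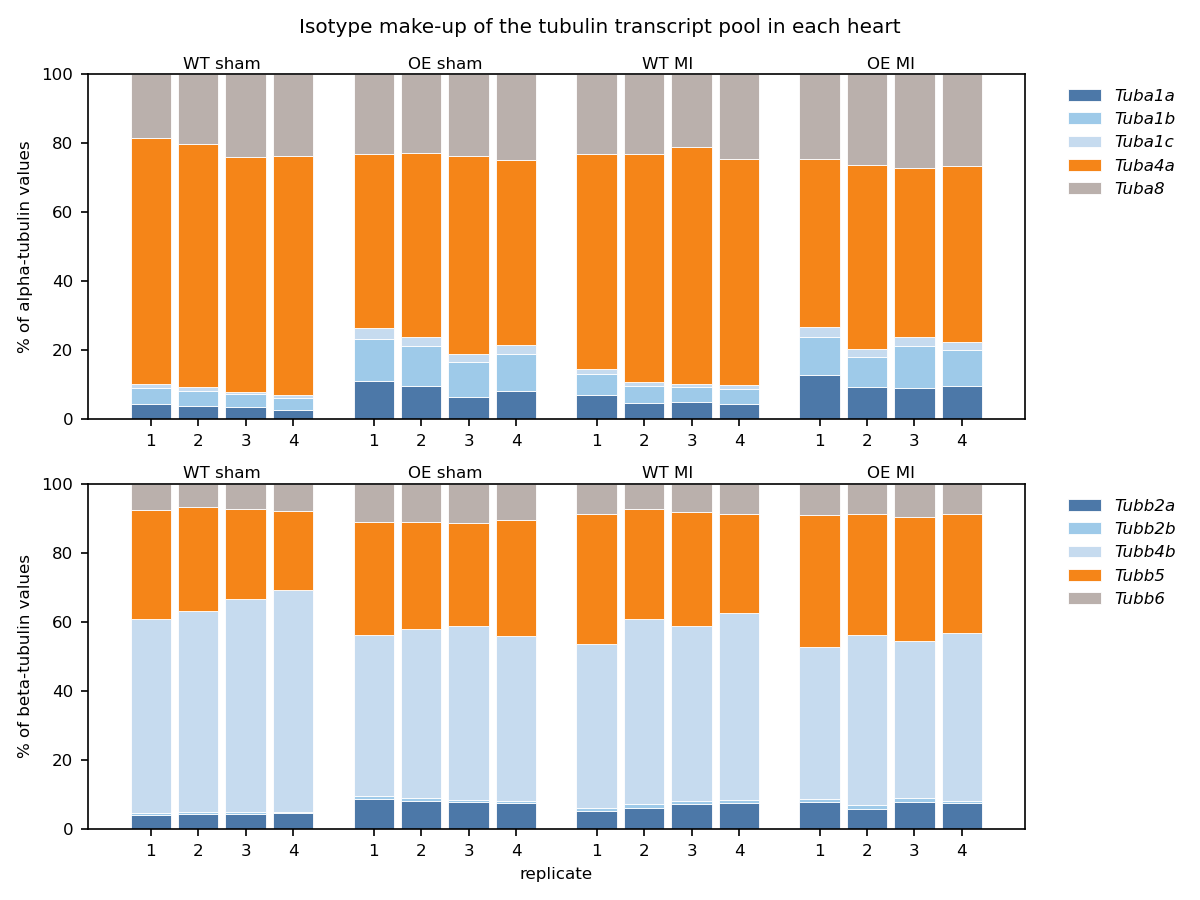
Percentage of summed alpha reads (top) and summed beta reads (bottom) held by each tubulin isotype in each heart, replicates 1 to 4 of the 4 groups. The Tuba4a band is narrower and the Tuba1a, Tuba1b and Tuba1c bands are wider in every OE heart than in any WT heart of the same surgery, and Tubb4b is narrower in OE sham than in WT sham hearts.

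Within a group the same library was often lowest for many members. WT MI replicate 1 was the lowest of its group for 10 of 10 members, OE sham replicate 4 for 10 of 10, and OE MI replicate 2 for 9 of 10. The share of all tested genes lowest in these libraries was not counted. Tuba1 genes share stretches with each other, as do Tubb2a and Tubb2b, so the members are not independent readings. In WT sham the lowest library was replicate 2 for 6 members, and the highest was replicate 4 for 6. The likeness of 2 members' patterns was measured as the root mean square difference of centred log2(normalized reads + 1) over the 16 libraries. The closest pairs were Tuba1a with Tubb5 (0.15), Tuba1b with Tuba1c (0.16) and Tuba1b with Tubb6 (0.16). The farthest was Tuba4a from Tubb2a (1.07), and Tuba4a was nearest to Tuba8 (0.31).

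For the 3 members with the widest span of group means, the nearest of all tested genes were named by the same measure. Tubb2a was nearest to Tubb6 (0.23), then Vcan and Litaf (both 0.26). Tubb2b was nearest to Ackr2 (0.23), then S100a10 (0.26) and Litaf (0.26). Tubb6 was nearest to Tuba1b (0.16), then Avpi1 (0.17) and Tmem62 (0.20).

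Some marker lists of heart cell types differed between the genotypes beside the tubulins. Of all tested genes 24.9% rose and 24.5% fell in sham hearts, and 15.5% and 16.3% in infarcted hearts. Endothelial sums overlapped, at 17521 to 21567 in WT sham and 14614 to 18644 in OE sham. Platelet sums also overlapped, at 223 to 340.02 and 217 to 281. Mural sums were 15673 to 20362 in WT sham and 14329 to 15324 in OE sham. The summed level of 8 cardiomyocyte markers ran from 997298 to 1161079 normalized reads in WT sham and from 647611 to 772819.9 in OE sham, and 5 of the 8 fell. The 8 fibroblast markers summed to 21675 to 25749 in WT sham and 86262 to 103416 in OE sham, and 7 rose. The 8 cycling-cell markers summed to 159 to 389 and 725 to 1345, and 8 rose. In infarcted hearts 5 cardiomyocyte markers fell, 6 fibroblast markers rose and 8 cycling-cell markers rose between WT and OE.

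Macrophage markers summed to 5568 to 7290.1 in WT sham and 6981 to 9447 in OE sham (4 of 8 rose), and to 9509 to 17242 in WT MI and 6833 to 12913 in OE MI (0 of 8 passed). Neuron and Schwann cell markers, of interest because Tubb2a, Tubb2b and Tubb3 are abundant in neurons, summed to 449 to 772 in WT sham and 887 to 1189 in OE sham, where 1 of 6 tested rose and 1 fell. In whole-heart RNA, fewer cells of a type and less RNA per cell cannot be told apart, and the part of these lists in the tubulin results was not tested. WT MI replicate 1, the lowest of its group in tubulins, had a cardiomyocyte sum of 971061, and the other WT MI hearts had 935696 to 1001665. This is 1 library, and the part of cardiomyocyte content in its tubulin levels was not tested.

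Promoters were read for the 8 members that the RefSeq table (GRCm38.p6) holds, as the 250 bases before the annotated start. Tubb5, which rose, and Tuba4a, which fell, are shown as the contrast, with each CCAAT in capitals; the first window lies at chr17:35838302-35838551 and the second at chr1:75219295-75219544, both on the minus strand. The Tuba4a window lies inside the gene span given above, at the start the RefSeq table uses.
Tubb5: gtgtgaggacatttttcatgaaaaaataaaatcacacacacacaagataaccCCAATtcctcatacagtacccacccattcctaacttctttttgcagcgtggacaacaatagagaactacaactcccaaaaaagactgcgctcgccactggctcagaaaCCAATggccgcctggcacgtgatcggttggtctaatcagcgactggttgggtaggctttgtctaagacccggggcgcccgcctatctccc
Tuba4a: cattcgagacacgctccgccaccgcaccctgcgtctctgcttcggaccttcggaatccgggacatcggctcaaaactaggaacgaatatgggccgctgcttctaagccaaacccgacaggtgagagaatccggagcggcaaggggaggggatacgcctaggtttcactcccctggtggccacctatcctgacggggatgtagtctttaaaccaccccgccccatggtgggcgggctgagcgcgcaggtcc
CCAAT on either strand, the letters bound by nuclear factor Y, was present in 34.5% of all 27025 promoters and in those of Tuba1a (1), Tuba1c (1), Tubb4b (5) and Tubb5 (2). It was not in the windows of Tuba1b, Tuba4a, Tuba8 and Tubb2a, so members that rose stood on both sides. GGAATG, the letters bound by TEAD factors, occurred in 12.6% of all promoters and once in Tubb5 alone among the members. GGGCGG, the letters bound by SP1, occurred in 32.9% of all promoters and in those of Tuba1a, Tuba1b, Tuba4a, Tubb2a and Tubb4b. TATAAA (13.0% of all) was in that of Tubb2a alone. TTTNNCGC (4.39% of all) and the CArG box (1.40% of all) were in none of the 8. All were searched on both strands, and a match in letters is not a binding site.

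The rest of the microtubule gene set was counted by list, to be read against all tested genes, of which 24.9% rose and 24.5% fell in sham hearts and 15.5% and 16.3% in infarcted hearts. Of the other 10 tubulin genes 7 were tested, and in sham hearts 2 rose, 1 fell and 4 did not pass. Tubb3, the neuronal beta-tubulin, rose by 1.30 ± 0.48 (SE) on the log2 scale (adjusted p = 0.0343), from 37.7 ± 19.6 to 89.4 ± 28.7 normalized reads. Tubg2, a gamma-tubulin, rose by 1.04 ± 0.24 (adjusted p = 0.00185), and Tubd1, the delta-tubulin of centrioles, fell by 0.53 ± 0.14 (adjusted p = 0.00601). Tubb1, the beta-tubulin of platelets, read at most 12.6 in any library.

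Before dimers form, nascent tubulin passes through prefoldin, the CCT chaperonin and the tubulin cofactors. Of 24 tested folding factors, 7 rose, 1 fell and 16 did not pass in sham hearts, with a median log2 difference of 0.05 against 0.01 over all tested genes. The 8 calls of 24 are a smaller share than the 49.3% of all tested genes. Cct8, a CCT subunit, rose by 0.80 ± 0.11 (SE; adjusted p = 2.53e-05) and the prefoldin subunit Pfdn1 by 0.54 ± 0.10 (adjusted p = 0.000299). Pfdn6, another prefoldin subunit, fell by 0.75 ± 0.12 (adjusted p = 8.58e-05). In infarcted hearts 4 folding factors were higher and 3 lower in OE, a share near the 31.9% of all tested genes.

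Of 18 tested tubulin-modifying enzymes 7 rose, 3 fell and 8 did not pass in sham hearts, with a median log2 difference of 0.22. The polyglutamylase subunit Ttll1 fell by 2.03 ± 0.18 (SE; adjusted p = 3.77e-07), from 1237 ± 71.5 to 307 ± 64.3 normalized reads, and the deglutamylase Agtpbp1 fell by 1.22 ± 0.08 (adjusted p = 5.74e-08). Ttll12 rose by 0.96 ± 0.11 (adjusted p = 5.46e-06) and the polyglutamylase Ttll7 by 0.92 ± 0.11 (adjusted p = 9.06e-06).

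Genes of the tyrosine cycle were looked up after the values had been seen. Vash1, a carboxypeptidase that removes the terminal tyrosine, rose by 0.90 ± 0.12 (SE; adjusted p = 2.12e-05) in sham hearts, from 496 ± 90.8 to 922 ± 149 normalized reads (SD, n = 4), and was 0.40 ± 0.12 higher in OE MI than in WT MI (adjusted p = 0.0185). Its partner Ccdc23, the older symbol of Svbp, rose by 0.29 ± 0.10 (adjusted p = 0.0267) in sham hearts. Ttl, the ligase that restores the tyrosine, read 641 ± 33.8 and 622 ± 44.2, with a log2 difference of -0.04 ± 0.08 (adjusted p = 0.684).

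Of 38 tested microtubule-binding proteins 11 rose, 10 fell and 17 did not pass in sham hearts, with a median log2 difference of 0.02. The share called is near that of all tested genes. Map1a, a microtubule-associated protein best known in neurons, rose by 2.89 ± 0.21 (SE; adjusted p = 1.25e-07), from 361 ± 53.6 to 2676 ± 441 normalized reads, and the microtubule stabilizer Map6 by 1.64 ± 0.18 (adjusted p = 3.04e-06). The severing enzyme Fign fell by 1.31 ± 0.35 (adjusted p = 0.00585) and the polymerization-promoting protein Tppp by 1.02 ± 0.20 (adjusted p = 0.000562).

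Gamma-tubulin complex and centrosome genes had more falls than rises in sham hearts, with 3 up, 8 down and 3 not passing of 14 and a median log2 difference of -0.21. Pcnt, the pericentrin scaffold, fell by 1.06 ± 0.12 (SE; adjusted p = 3.53e-06) and Mzt2, a gamma-tubulin complex subunit, by 0.50 ± 0.12 (adjusted p = 0.00346). Cep192 rose by 0.36 ± 0.11 (adjusted p = 0.0104) and Cdk5rap2 by 0.33 ± 0.12 (adjusted p = 0.0323), both centrosome scaffolds.

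Of 24 tested interphase motors 11 rose, 6 fell and 7 did not pass in sham hearts, with a median log2 difference of 0.08. Kif1a, a kinesin of neuronal vesicle transport, rose by 2.00 ± 0.27 (SE; adjusted p = 1.75e-05) and the dynein light chain Dynll1 by 1.37 ± 0.21 (adjusted p = 5.76e-05). Their relatives Kif1b and Dynll2 fell by 0.64 ± 0.08 (adjusted p = 1.38e-05) and by 0.63 ± 0.10 (adjusted p = 8.26e-05).

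The mitotic spindle list moved mostly one way, with 17 of 18 up and 1 down in sham hearts and 16 up and 2 not passing in infarcted hearts. Its median log2 difference was 1.38 in sham hearts. Prc1, which bundles antiparallel spindle microtubules, rose by 2.04 ± 0.29 (SE; adjusted p = 3.49e-05), from 42.3 ± 18.2 to 169 ± 37.5 normalized reads, and Tpx2, a spindle assembly factor, by 2.03 ± 0.25 (adjusted p = 7.91e-06). Numa1, which also serves the interphase nucleus, fell by 0.32 ± 0.07 (adjusted p = 0.00116). Between OE MI and OE sham none of the 7 lists had a gene past the threshold.

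**Figure D5:**
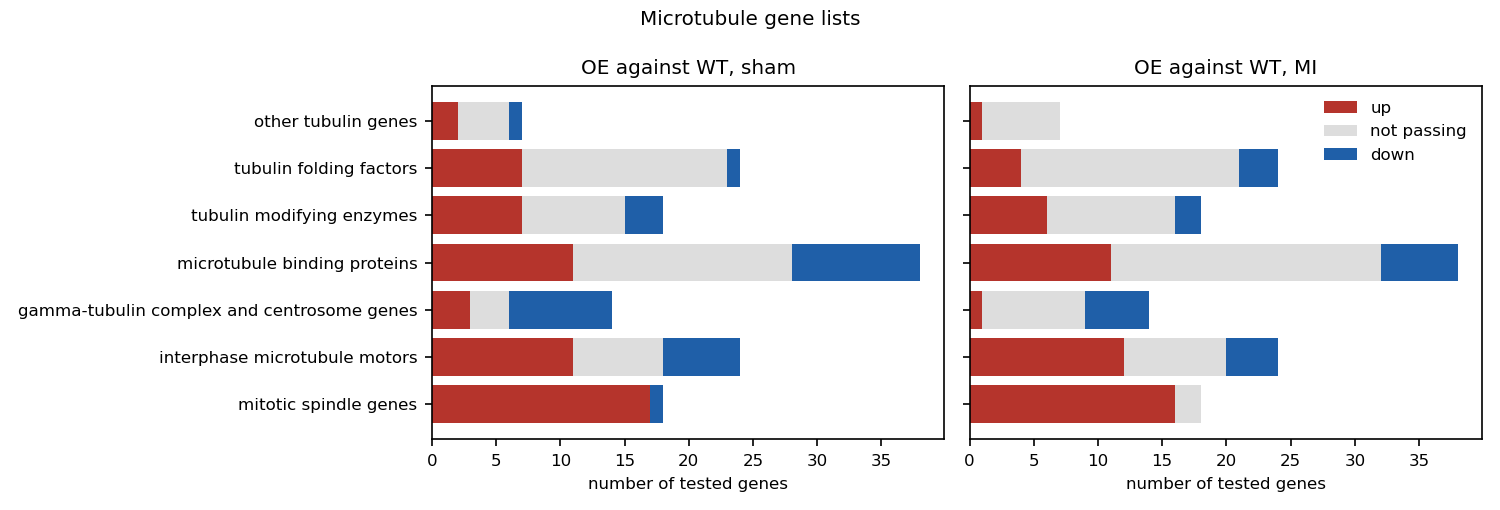
Number of tested genes (x axis) in 7 microtubule gene lists that were higher (red), lower (blue) or did not pass an adjusted p of 0.05 (grey, limma) in OE against WT hearts, sham at left and infarcted at right. The mitotic spindle list is nearly all red in both states, the gamma-tubulin complex and centrosome list has more blue than red, and the other lists are mixed.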

How the data were processed

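RNA of 16 hearts was sequenced as 60-base single reads. Per the series design text, adapters were trimmed with cutadapt, reads under 40 bases were dropped, reads were subsampled to one depth, and reads were aligned to mm10 with TopHat 2.0.10 and counted on RefSeq genes with HTSeq-count 0.6.1p1. The deposited values are a signal, gene counts that the authors divided by 1 size factor per library, per the file headers. The authors' deposited log2 fold changes and adjusted p-values (DESeq2 1.6.3) gave the same calls by direction for the tubulins in the 4 pairwise comparisons: 7 up and 1 down, 5 and 1, 1 and 0, and 0 and 0. Whole reads were recovered for 100% of values within 0.001 of a whole number.

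Genes were tested if 4 or more libraries reached a value of 10, with limma 3.58.1 (R 4.3.3; trended variance, 4 group means, log2(value + 1), Benjamini-Hochberg, threshold 0.05), after tests on simulated data. Alternatives were edgeR 4.0.16 and DESeq2 1.42.0 on recovered reads, which called 7067 and 7125 genes in OE against WT sham (limma 7051), and those listed in the closing section. Members and lists were chosen with earlier results of these data known. All 10 members are named, and from each list the passing genes with the largest rises and falls in sham hearts, up to 2 each, with a mean of at least 50 in 1 group. Per-length levels use the longest RefSeq-matched GENCODE M21 transcript. Tool versions for sequence work were Python 3.11.15, pandas 2.3.3 and scipy 1.17.1. The 4 animals of a group are separate per the series design text. The coding ends of 3 members are not reported here.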

Additional observations from a re-analysis of the deposited data

Results flagged for a closer look

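Among 40 groups of 4 values (10 tubulin isotypes in 4 groups), 1 held a library far from the other 3. Tuba1b read 1168 normalized reads in OE sham replicate 4, while the other OE sham hearts lay between 1628 and 1663. Chance flags about 1 in 20 such groups. OE sham replicate 4 was also the lowest OE sham heart for 10 of 10 isotypes. The share of all tested genes lowest in that heart was not counted.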

How the results depend on the processing

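The replicate block left all counts of calls at 8, 6, 1, 0 and 0. Replicate numbers did not pair the samples: deviations of same-numbered libraries correlated at -0.344 to 0.271, and of others at -0.341 to 0.35. In sham hearts the number of OE against WT calls, 8, stayed within 1.5 times under every setting tried. So did the number of shares without overlap in both states (8 and 5). Within RA 1 to 12 the sham calls were 8 rises, with Tubb4b passing and Tuba4a not. In infarcted hearts Tuba4a also lost its call there (limma log2 difference -0.66, adjusted p = 0.0709). OE against WT in infarcted hearts gave 1 call with only the 2 groups compared in the fit, 0 with lung and thymus terms and 2 without the infarcted libraries on the sham side, and leaving out single replicates gave 3 to 7. Of the 14298 tested genes 3336, 752 and 3427 passed in these settings in turn, against 4554 in the main fit. Leaving out single replicates, 3522 to 4955 passed. MI against sham in WT gave 0 calls with voom, with only the 2 groups, within RA 1 to 12 and with lung and thymus terms, 2 without the sham-side libraries, and 0 to 2 leaving out single replicates. Of all tested genes 453, 606, 112, 6 and 1936 passed in these settings in turn, against 1008 in the main fit. Leaving out single replicates, 276 to 1871 passed. The causes were not tested. Settings that leave libraries out change both the number of libraries and which ones are in the fit. The sham-side setting, unique-stretch shares and summed Tuba1 genes were chosen after seeing the data.

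Signs turned for values that had not passed. With lung and thymus terms these were Tuba1b (-0.29), Tuba1c (-0.18) and Tubb6 (-0.13) for MI against sham in WT, Tubb2a (-0.17), Tubb2b (-0.19) and Tubb4b (-0.0743) for OE against WT in MI, Tubb2b (-0.94) for MI against sham in OE and Tuba8 (-0.11) for the interaction. Within RA 1 to 12 they were Tuba8 (0.17) for OE against WT sham, Tuba1c (-0.11), Tuba8 (0.0584) and Tubb4b (0.0498) for MI against sham in WT, Tubb2b (-0.14) for MI against sham in OE and Tuba8 (-0.22) for the interaction. Without the sham-side libraries they were Tuba8 (0.15) and Tubb4b (0.13) for MI against sham in WT and Tuba8 (-0.34) for the interaction. For MI against sham in OE, Tuba1a turned with library totals (0.0397) and voom (0.00096), and Tubb5 with library totals (0.0216), edgeR (0.0143) and DESeq2 (0.0136). Tuba8 turned with edgeR for the interaction (-0.0056).

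Leaving out single replicates, differences ran from -0.13 to 0.14 for Tuba1a, -0.19 to 0.0193 for Tuba8, -0.14 to 0.24 for Tubb2b and -0.14 to 0.16 for Tubb5 (MI against sham in OE). They ran from -0.0445 to 0.17 for Tuba1c, -0.29 to 0.15 for Tuba8 and -0.25 to 0.13 for Tubb4b (MI against sham in WT), and from -0.31 to 0.13 for Tuba4a, -0.23 to 0.21 for Tuba8 and -0.37 to 0.0183 for Tubb4b (interaction). Of the whole tubulin sum, OE minus WT shares in percentage points were -3.13 for Tuba8 and 6.12 for Tubb4b in sham hearts, and -1.86 for Tuba8, 0.135 for Tubb2b and 5.70 for Tubb4b in infarcted hearts. With reads divided by unique stretches they were -2.43 and -1.24 for Tuba8, sham and infarcted, and 0.00717 for Tubb2b in infarcted hearts. As a share of beta reads the Tubb2b difference there was -0.0246, and leaving out single replicates it ran from -0.0808 to 0.0447. Depth limits Tubb2b most, with as few as 20 reads in a library.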
